A study of Saccharomyces cerevisiae with 15 samples.

Results

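Marker genes of the W303 strain and genes next to HIS3 and URA3 were followed across all 5 groups of an expression array series. The series was of budding yeast (Saccharomyces cerevisiae) with mutant RNA polymerase II. The set comprised 10 genes, of which 6 are marker genes (HIS3, URA3, TRP1, LEU2, ADE2 and CAN1) and 4 are chromosomal neighbours (MRM1 and DED1 beside HIS3, GEA2 and TIM9 beside URA3). Probe sets were found by gene symbol for 9 of the 10, out of 5449 genes tested, and TRP1 was not analysed here. The set was drawn up because HIS3 had a very low level in rpb2-10 and URA3 a very low level in rpb1-1. Values of the 9 genes in these 2 mutants against their wild types are therefore given as a description, without a test.

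A mutant marker allele lets a strain be selected by the nutrient it cannot make, and a plasmid or cassette with the intact gene restores growth. HIS3 encodes an enzyme of histidine synthesis, URA3 one of pyrimidine synthesis, TRP1 one of tryptophan synthesis, LEU2 one of leucine synthesis and ADE2 one of purine synthesis, while CAN1 encodes the arginine permease that also lets in the toxic analogue canavanine. The alleles of W303 are small lesions: nonsense codons in ade2-1, can1-100 and trp1-1, a substitution in ura3-1 and frameshifts in his3-11,15 and in the double allele of leu2-3 and leu2-112. MRM1 is divided from HIS3 by a shared upstream region and read in the opposite direction, and DED1 follows HIS3 in the same direction. GEA2, URA3 and TIM9 follow each other on 1 strand.

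The 15 arrays held 3 biological replicates each of rpb1-1, rpb1S751F and their wild type WT1B, all of mating type alpha, and of rpb2-10 and its wild type WT1A, both of mating type a. The labels give every strain RAD5 and the marker alleles ura3-1, leu2-3 with leu2-112, ade2-1, his3-11,15, trp1-1 and can1-100, so that, by the labels, a mutant differs from its wild type at the polymerase gene alone (the largest subunit for the rpb1 alleles, the second largest for rpb2-10). In the values below, URA3 was near the background in the rpb1-1 strain and HIS3 in the rpb2-10 strain. The labels give mutant and wild type the same alleles, and the marker genotype of the strains was not tested. A changed marker locus and less transcript from the labelled allele cannot be told apart from these values, so neither difference is assigned to the polymerase mutation. Cells were in mid-log phase in rich medium with adenine, and no temperature is given. Each mutation was present in 1 strain, and the p-values measure the spread between these replicates only. RNA came from whole cultures, so that less transcript in each cell and transcript missing from some cells cannot be told apart.

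Levels are log2 expression values. Array medians over the tested genes ran from 10.04 to 10.09 in the 9 alpha-strain arrays and from 7.75 to 7.83 in the 6 a-strain arrays, so the arrays formed 2 sets and levels are compared within a set. Probe sets for the genes of another species, 1746 in all, gave the background: their median was 3.09 to 3.15 in the alpha set and 1.14 to 1.20 in the a set, and their 95th percentile 3.99 to 4.20 and 1.70 to 1.87. All 5 a-cell markers (MFA1, MFA2, STE2, STE6 and BAR1) were higher on every a array than on every alpha array after median centring. Of 5 alpha-cell markers 3 were lower on every a array, while STE3 and SAG1 overlapped, their lowest alpha levels being those of rpb1-1, with centred means of −1.82 and −1.07, against 1.95 and 1.69 in WT1B. All 5 alpha-cell markers fell in rpb1-1 (median difference −2.73), and 3 of 5 fell in rpb1S751F, where 25.7% and 23.5% of all genes fell. MF(ALPHA)2, a gene of the alpha pheromone, fell the most of the 5 in both, by 5.40 and 4.68. Of the 5 a-cell markers, 2 rose and 2 fell in rpb1-1, where 28.1% of all genes rose. In rpb1S751F 4 of them rose, where 31.1% of all genes did, and BAR1 fell by 2.86 ± 0.13. The part of this in the results below was not tested. RPO21, which encodes the largest subunit, was higher by 0.40 ± 0.08 in rpb1-1 and by 0.37 ± 0.08 in rpb1S751F (SE, limma adjusted p = 0.00259 and 0.00373). RPB2, which encodes the second largest, differed by 0.0039 ± 0.059 in rpb2-10 (SE, limma adjusted p = 0.956). In the rpb1 mutants RPB2 was higher as well, by 0.63 ± 0.07 in rpb1-1 and by 0.36 ± 0.07 in rpb1S751F (adjusted p = 0.000129 and 0.00281). The rise there was thus not particular to RPO21, which was at 0.15 ± 0.07 in rpb2-10 (adjusted p = 0.073).

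Of the 135 values of the 9 genes (9 genes on 15 arrays), 134 lay above the 95th percentile of the background on their array. The exception was HIS3 in rpb2-10 replicate 1. In rpb1-1 the 3 arrays lay apart from the 3 WT1B arrays for 9 of the 9 genes, where 63.2% of all tested genes did so, with 7 lower and 2 higher (31% and 32.2% of all genes). In rpb2-10 the arrays lay apart from WT1A for 9 of 9, where 76.1% of all genes did so, again with 7 lower and 2 higher (42% and 34% of all genes). In rpb1S751F, 8 of the 9 genes passed the limma test against WT1B (adjusted p below 0.05 over 5449 genes, which 54.6% of all genes met), 6 lower and 2 higher (23.5% and 31.1% of all genes). The arrays of the same 8 genes lay apart from WT1B, where 62.5% of all genes did so (27.5% lower, 35% higher), and URA3 was the gene that overlapped. A log2 difference of −1 or lower was found for 2 of the 9 in rpb1-1 (6.07% of all genes, and 11.5% at least 1 in size), for 1 in rpb1S751F (4.2%, and 11.3%) and for 5 in rpb2-10 (4.35%, and 6.46%). The rpb1S751F and rpb1-1 comparisons share the WT1B arrays.

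**Figure D1:**
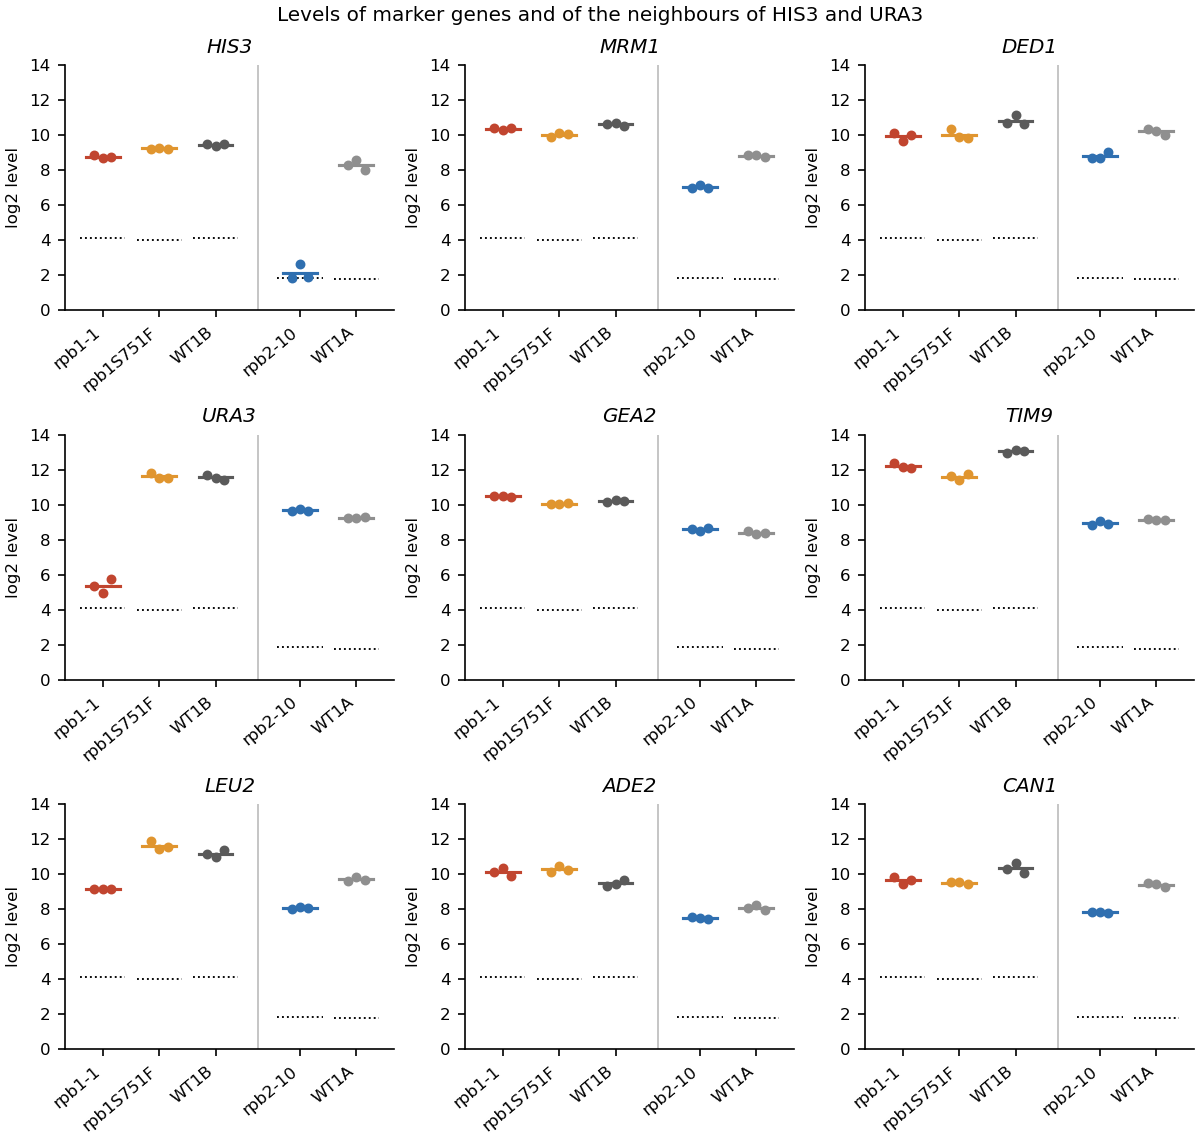
Log2 expression level (vertical axis) of the 9 measured genes on each array, by group, with a bar at the mean of 3 replicates and a dotted line at the 95th percentile of the probe sets of the other species. A grey line divides the alpha set from the a set, whose levels are not on a common scale. HIS3 in rpb2-10 and URA3 in rpb1-1 lie at or near the dotted line, and the other group means lie between 7.05 and 13.06.

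HIS3 encodes imidazoleglycerol-phosphate dehydratase. Its level was 1.84, 2.62 and 1.91 on the rpb2-10 arrays, against 8.32, 8.61 and 8.03 on the WT1A arrays, a difference of −6.20 ± 0.21 (SE, n = 3 each). The rpb2-10 arrays lay 5.41 below the lowest WT1A array, and replicate 2 was the highest of the 3. The rpb2-10 mean was 0.94 above the median of the other species, against 7.18 above it in WT1A. Between 19 and 99 of the 1746 probe sets of the other species were brighter than HIS3 on an rpb2-10 array, and none was on any other array.

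In the alpha set HIS3 was detected throughout. It was at 8.89, 8.69 and 8.76 in rpb1-1 and at 9.24, 9.29 and 9.23 in rpb1S751F, against 9.48, 9.40 and 9.53 in WT1B. The 3 groups did not overlap. The difference from WT1B was −0.69 ± 0.07 in rpb1-1 and −0.22 ± 0.07 in rpb1S751F (SE, limma adjusted p = 0.0326 for rpb1S751F). The call in rpb1S751F ended under 5 of 15 alternatives, among them 1 fit of all 15 arrays, with adjusted p = 0.299, and the exclusion of WT1B replicate 1 or 3 or of rpb1S751F replicate 1 or 3, with adjusted p from 0.0663 to 0.0949.

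The genes on both sides of HIS3 were also low in rpb2-10. MRM1, which encodes a methyltransferase of mitochondrial ribosomal RNA, was at 6.98, 7.16 and 6.998 in rpb2-10, against 8.89, 8.85 and 8.76 in WT1A, a difference of −1.79 ± 0.06, or 3.45-fold on the linear scale. DED1, an RNA helicase needed to start translation, was at 8.72, 8.67 and 9.03 in rpb2-10, against 10.36, 10.26 and 10.03 in WT1A, a difference of −1.41 ± 0.11, or 2.66-fold. MRM1 was the 55th lowest and DED1 the 107th lowest of the 5449 differences in this comparison. Both stayed 5.86 and 7.62 above the median of the other species, so they were well detected, unlike HIS3.

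In the alpha mutants the neighbours of HIS3 were lower too. DED1 differed by −0.89 ± 0.19 in rpb1-1, and it fell by 0.80 ± 0.19 in rpb1S751F (SE, limma adjusted p = 0.00747). MRM1 differed by −0.26 ± 0.08 in rpb1-1 and fell by 0.58 ± 0.08 in rpb1S751F (adjusted p = 0.00037). DED1 was thus lower in each of the 3 mutants than in its own wild type, with replicates more widely spread than those of MRM1: the SD of DED1 was between 0.17 and 0.28 in the 5 groups and that of MRM1 between 0.07 and 0.10.

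Beyond MRM1 and DED1, the genes near HIS3 had smaller differences in rpb2-10. BFR1, the next measured gene beyond MRM1, was at 0.079 ± 0.062 (adjusted p = 0.282), and GEP3, the next beyond DED1, fell by 0.42 ± 0.05 (adjusted p = 6.91e-05). Of the 8 other genes within 5 measured genes of HIS3, 5 fell in rpb2-10 and none rose, where 39.1% of all genes fell. Their lowest value was −0.87 ± 0.05, for PTP2, a protein tyrosine phosphatase, the farthest of the 5 genes on the DED1 side. NOC2, of ribosome assembly, and RET1, of RNA polymerase III, lay between GEP3 and PTP2, and both fell by 0.40.

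**Figure D2:**
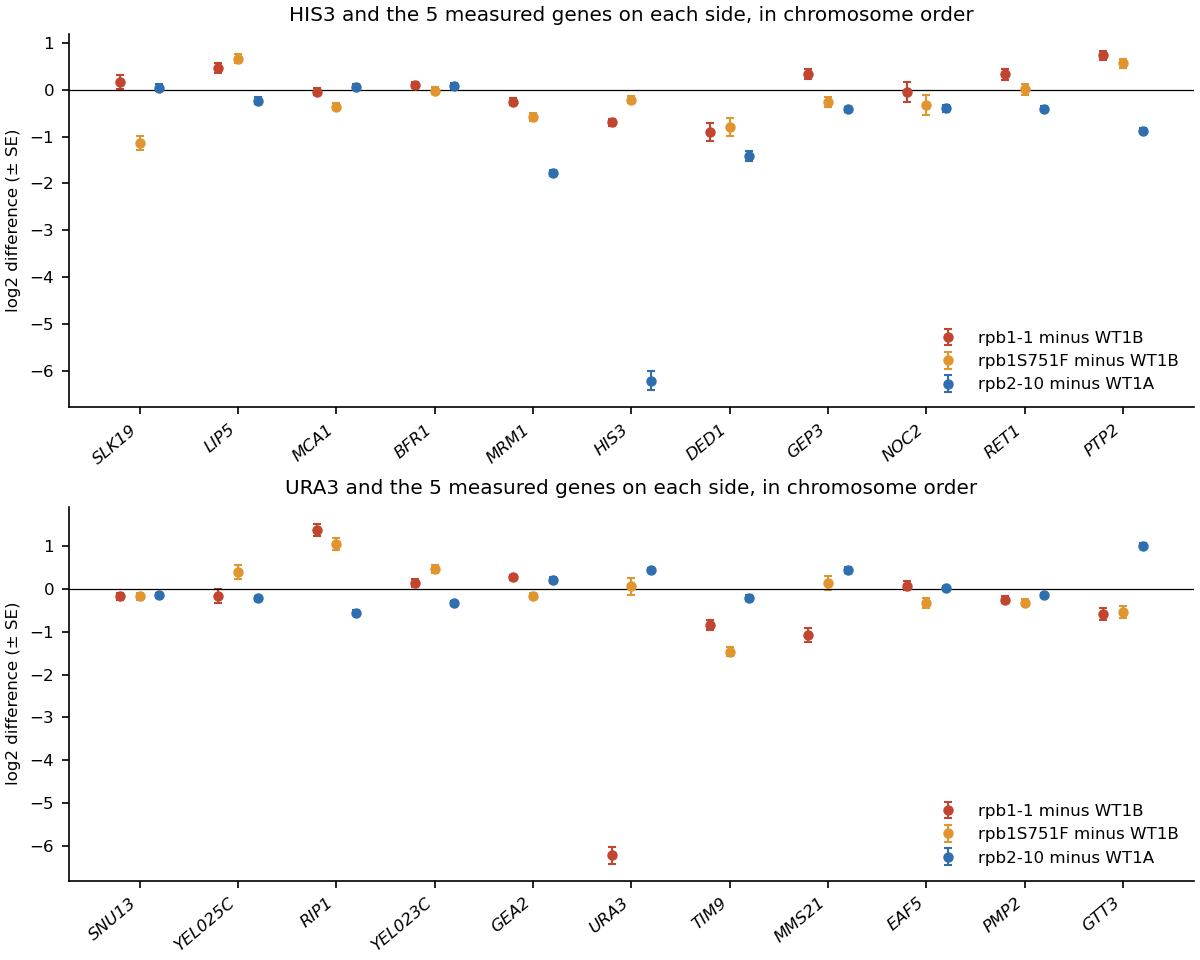
Log2 difference ± SE (vertical axis, n = 3 arrays per group) of HIS3 (top) and URA3 (bottom) and the 5 measured genes on each side, in chromosome order, for rpb1-1 minus WT1B, rpb1S751F minus WT1B and rpb2-10 minus WT1A. HIS3 in rpb2-10 lies at −6.20 with MRM1 and DED1 at −1.79 and −1.41, and URA3 in rpb1-1 lies at −6.21 with GEA2 and TIM9 at 0.27 and −0.84.

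URA3 encodes orotidine monophosphate decarboxylase. Its level was 5.35, 4.95 and 5.78 on the rpb1-1 arrays, against 11.72, 11.56 and 11.43 on the WT1B arrays, a difference of −6.21 ± 0.19 (SE, n = 3 each). The rpb1-1 arrays lay 5.65 below the lowest WT1B array. The rpb1-1 mean was 2.22 above the median of the other species, and between 4 and 16 of their 1746 probe sets were brighter on an rpb1-1 array. All 3 rpb1-1 arrays lay above the 95th percentile of the other species.

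The array also carries 3 control probe sets that their identifiers assign to the 5′ part, the middle and the 3′ part of URA3, and these values are given without a test. The 5′ probe set was at 6.03, 5.22 and 4.78 in rpb1-1, against 11.59, 11.33 and 11.23 in WT1B, a difference of −6.04. The middle probe set was at 4.62, 4.65 and 4.96 in rpb1-1, against 11.05, 10.84 and 10.69 in WT1B, a difference of −6.12, and the 3′ probe set was at 4.93, 4.41 and 4.87, against 10.72, 10.59 and 10.58, a difference of −5.90. All 4 probe sets of URA3 were thus low in rpb1-1, by amounts within 0.31 of each other, with every array above the 95th percentile of the other species.

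In the other mutants URA3 remained high. It was at 11.83, 11.51 and 11.53 in rpb1S751F, overlapping the WT1B arrays, with a difference of 0.055 ± 0.193 (SE, limma adjusted p = 0.825, 95% confidence interval −0.38 to 0.49). The SE comes from all 9 alpha arrays, so the spread in rpb1-1 enters this interval. The SD of URA3 was 0.41 in rpb1-1, 0.18 in rpb1S751F and 0.15 in WT1B. URA3 was at 9.64, 9.73 and 9.66 in rpb2-10, against 9.22, 9.25 and 9.27 in WT1A, a difference of 0.43 ± 0.05. The 3 control probe sets lay between 0.43 and 0.49 higher in rpb2-10 than in WT1A and between −0.26 and 0.018 in rpb1S751F relative to WT1B.

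**Figure D3:**
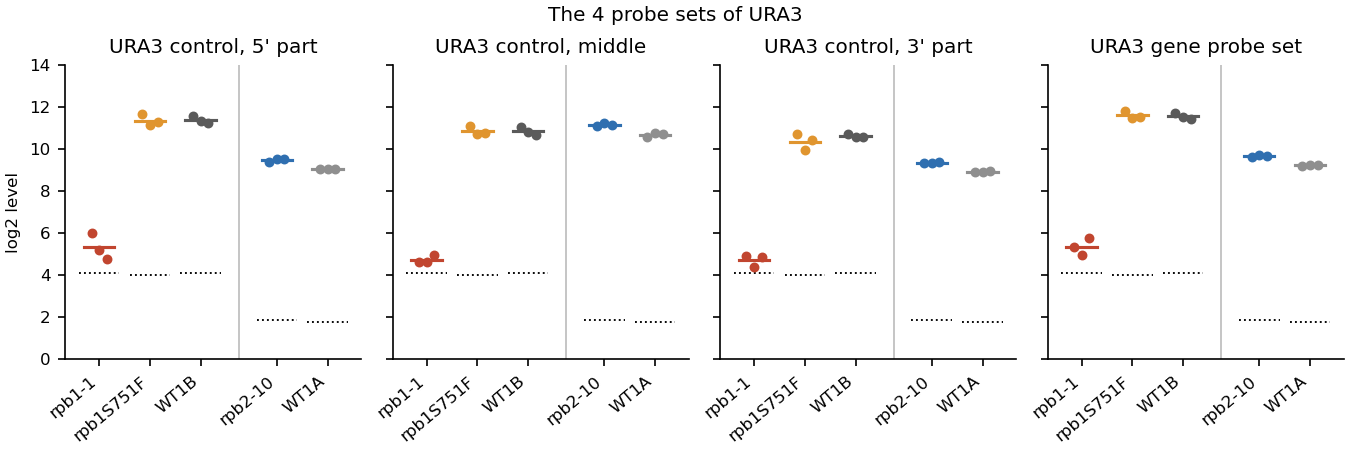
Log2 level (vertical axis) of the 3 URA3 control probe sets and of the URA3 gene probe set on each array, by group, with a bar at the mean of 3 replicates and a dotted line at the 95th percentile of the other species. All 4 probe sets are low in rpb1-1, with means from 4.73 to 5.36, against 10.63 to 11.57 in WT1B.

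The neighbours of URA3 had smaller differences than URA3 in rpb1-1, in opposite directions. GEA2, upstream of URA3, encodes an exchange factor for the small GTPase ARF in Golgi transport and was at 10.50, 10.48 and 10.45 in rpb1-1, against 10.19, 10.26 and 10.19 in WT1B, a difference of 0.27 ± 0.06. TIM9, downstream of URA3, encodes a chaperone of the mitochondrial intermembrane space and was at 12.39, 12.18 and 12.09 in rpb1-1, against 12.98, 13.13 and 13.07 in WT1B, a difference of −0.84 ± 0.11. One neighbour was thus higher and the other lower.

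TIM9 was lower still in rpb1S751F, where URA3 overlapped the wild type. It was at 11.63, 11.40 and 11.76 in rpb1S751F and fell by 1.46 ± 0.11 (SE, limma adjusted p = 1.98e-05), or 2.76-fold, the 93rd lowest of 5449 differences. GEA2 fell by 0.17 ± 0.06 in rpb1S751F (adjusted p = 0.0382), a call that ended under 10 of 15 alternatives, including the exclusion of any of the 9 alpha arrays, with adjusted p up to 0.127. In rpb2-10 GEA2 differed by 0.21 ± 0.07 and TIM9 by −0.22 ± 0.07 from WT1A.

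MMS21, the next measured gene beyond TIM9, encodes a SUMO ligase of DNA repair. It fell by 1.08 ± 0.16 in rpb1-1 (adjusted p = 0.00061), was at 0.13 ± 0.16 in rpb1S751F (adjusted p = 0.53) and rose by 0.44 ± 0.07 in rpb2-10. Its mean was 5.12 in rpb1-1, about as low as the 5.36 of URA3 there, against 6.20 in WT1B. Of the 8 other genes near URA3, 3 fell and 1 rose in rpb1-1, where 25.7% of all genes fell and 28.1% rose. The riser was RIP1, the iron-sulphur protein of respiratory complex III, at 1.36 ± 0.14, and it also rose by 1.03 ± 0.14 in rpb1S751F and fell by 0.56 ± 0.06 in rpb2-10.

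LEU2 encodes isopropylmalate dehydrogenase and was the marker with the next largest difference. It was at 9.14, 9.17 and 9.18 in rpb1-1, against 11.15, 10.98 and 11.41 in WT1B, a difference of −2.02 ± 0.14, or 4.04-fold on the linear scale. It was at 8.01, 8.11 and 8.07 in rpb2-10, against 9.64, 9.85 and 9.66 in WT1A, a difference of −1.65 ± 0.07, or 3.14-fold. LEU2 was thus low both where URA3 was near the background and where HIS3 was, while staying 6.02 and 6.88 above the median of the other species.

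In rpb1S751F LEU2 moved the other way. It was at 11.92, 11.46 and 11.54 and rose by 0.46 ± 0.14 relative to WT1B (SE, limma adjusted p = 0.0207). The lowest rpb1S751F array lay 0.052 above the highest WT1B array. The call ended without WT1B replicate 1, WT1B replicate 2 or rpb1S751F replicate 1, with adjusted p of 0.0588, 0.0775 and 0.0513.

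CAN1 was lower in all 3 mutants. It was at 7.86, 7.83 and 7.81 in rpb2-10, against 9.49, 9.46 and 9.27 in WT1A, a difference of −1.58 ± 0.07, or 2.98-fold. It was at 9.84, 9.42 and 9.69 in rpb1-1 and at 9.57, 9.56 and 9.42 in rpb1S751F, against 10.30, 10.67 and 10.10 in WT1B, and it fell by 0.84 ± 0.15 in rpb1S751F (SE, limma adjusted p = 0.0018), with −0.71 ± 0.15 in rpb1-1. No array of either rpb1 mutant reached the lowest WT1B array.

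ADE2, which encodes phosphoribosylaminoimidazole carboxylase, had opposite signs in the 2 sets. It was at 10.15, 10.38 and 9.92 in rpb1-1 and at 10.14, 10.49 and 10.26 in rpb1S751F, against 9.33, 9.45 and 9.65 in WT1B. It rose by 0.82 ± 0.14 in rpb1S751F (SE, limma adjusted p = 0.00133), and its difference in rpb1-1 was 0.67 ± 0.14. In rpb2-10 it was at 7.58, 7.51 and 7.45, against 8.09, 8.22 and 7.96 in WT1A, a difference of −0.58 ± 0.07. The difference between these effects was not tested, since they come from separately scaled sets.

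Genes around LEU2, ADE2, CAN1 and the TRP1 position were called in both directions in most cases. Within 5 measured genes of the 6 marker genes there were 56 other genes, of which 30 passed the test in rpb1-1 (20 higher, 10 lower), 32 in rpb1S751F (16 and 16) and 45 in rpb2-10 (19 and 26), that is 53.6%, 57.1% and 80.4%, beside 53.8%, 54.6% and 71.2% of all tested genes. Of 10 genes around LEU2, 5 rose and 4 fell in rpb1-1, 4 and 4 in rpb1S751F, and 5 and 4 in rpb2-10. Of 10 around ADE2, 5 rose and 1 fell in rpb1-1, 3 and 2 in rpb1S751F, and 4 and 4 in rpb2-10. Of 10 around CAN1, 3 rose and 1 fell in rpb1-1, 5 and 2 in rpb1S751F, and 5 and 3 in rpb2-10. The 10 genes around the TRP1 position included 2 that rose and 1 that fell in rpb1-1, 3 that fell and none that rose in rpb1S751F, and 3 that rose and 5 that fell in rpb2-10. Of the measured genes next to LEU2, the cysteine desulfurase gene NFS1 rose by 0.49 ± 0.06 in rpb1-1 and by 0.64 ± 0.06 in rpb1S751F. It was at −0.014 ± 0.085 in rpb2-10 (adjusted p = 0.891). The uncharacterised gene YCL021W-A, on the other side, fell by 1.08 ± 0.23 in rpb1-1 and rose by 0.21 ± 0.06 in rpb2-10. It fell by 2.28 ± 0.23 in rpb1S751F, where LEU2 rose. The genes on the 2 sides of LEU2 thus did not share its difference of −1.65 in rpb2-10.

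Some genes near a marker had large differences of their own. The highest were HBN1 and FRM2, both near LEU2, which rose by 3.96 ± 0.07 in rpb2-10 and by 2.77 ± 0.13 in rpb1S751F. The lowest was BAG7, near ADE2, which fell by 2.35 ± 0.13 in rpb2-10, to a mean of 2.07, near the background. Next but 1 to ADE2, ORT1, the mitochondrial ornithine transporter, fell in each mutant, by 1.60 ± 0.09 in rpb1-1, 0.71 ± 0.09 in rpb1S751F and 0.90 ± 0.08 in rpb2-10. Near CAN1, SIT1, a siderophore transporter, rose by 2.44 ± 0.07 in rpb2-10 and by 1.10 ± 0.34 in rpb1-1. AVT2, directly beside CAN1, was at −0.044 ± 0.077 in rpb2-10 (adjusted p = 0.628), where CAN1 was at −1.58. Beside the TRP1 position, GAL3, a regulator of galactose genes, fell by 1.00 ± 0.26 in rpb1-1, and SOK1 fell by 0.97 ± 0.07 in rpb2-10. GAL3 was dim, with a mean of 5.37 in rpb1-1, against 6.37 in WT1B.

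The other genes of the marker pathways were read from lists of textbook pathway members. Of 6 measured histidine genes, 5 fell and none rose in rpb1-1 (25.7% of all genes fell), 5 fell and none rose in rpb2-10 (39.1% of all genes fell), and 4 rose and 1 fell in rpb1S751F (31.1% of all genes rose). HIS4, which encodes an enzyme of several steps of the pathway, fell by 1.04 ± 0.13 in rpb1-1 and by 1.33 ± 0.08 in rpb2-10 and rose by 0.50 ± 0.13 in rpb1S751F. HIS1, the first enzyme, fell by 0.52 ± 0.11 in rpb1-1, by 0.84 ± 0.06 in rpb2-10 and by 0.40 ± 0.11 in rpb1S751F. The median of the list was −0.50 in rpb1-1, −0.44 in rpb2-10 and 0.27 in rpb1S751F, beside −0.0081, −0.047 and 0.041 for all tested genes.

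The medians of the leucine and branched-chain list had the sign of LEU2 in each mutant. Of 11 genes, 7 fell and none rose in rpb1-1, 9 fell and 1 rose in rpb2-10, and 5 rose and 1 fell in rpb1S751F, with medians of −0.58, −0.45 and 0.18. Among all genes 25.7% fell in rpb1-1, 39.1% fell in rpb2-10 and 31.1% rose in rpb1S751F, where array weights gave 6 higher and 2 lower in the list. BAT1, the mitochondrial branched-chain aminotransferase, fell by 0.62 ± 0.07 in rpb1-1 and by 0.51 ± 0.05 in rpb2-10 and rose by 0.49 ± 0.07 in rpb1S751F. ILV5, an enzyme shared by the branched-chain pathways, fell by 0.78 ± 0.11 in rpb1-1 and by 0.93 ± 0.07 in rpb2-10. LEU1, which acts just before LEU2, rose by 0.78 ± 0.10 in rpb1S751F and fell by 0.58 ± 0.10 in rpb1-1. None of the 11 genes had a difference as large as that of LEU2 in rpb1-1 or rpb2-10, since the lowest were BAT2 at −0.85 ± 0.15 in rpb1-1 and ILV5 in rpb2-10.

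In the pyrimidine list, 6 of 11 genes fell and none rose in rpb1-1, 5 rose and 1 fell in rpb1S751F, and 4 rose and 3 fell in rpb2-10. Among all genes 25.7% fell in rpb1-1, 31.1% rose in rpb1S751F, and 32% rose and 39.1% fell in rpb2-10, so that the share of the list that rose in rpb2-10 was near that of all genes. With array weights 6 rose and 3 fell in rpb1S751F. FUR1, which salvages uracil, fell by 1.03 ± 0.10 in rpb1-1, URA10, the minor orotate phosphoribosyltransferase, by 0.98 ± 0.10, and URA6, the kinase of uridine monophosphate, by 0.90 ± 0.08. These were the lowest of the 11, where URA3 itself was at −6.21. URA2, which catalyses the first steps, rose by 0.99 ± 0.08 in rpb1S751F, and URA8, a CTP synthase, rose by 1.04 ± 0.09. In rpb2-10 URA8, URA1 and FUR1 rose by 0.61 ± 0.05, 0.53 ± 0.05 and 0.53 ± 0.05, beside 0.43 for URA3.

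Of 11 measured purine genes, 4 were called higher and 1 lower in rpb1-1, 7 higher and 1 lower in rpb1S751F, and 4 higher and 5 lower in rpb2-10. Among all genes 28.1% were higher in rpb1-1, 31.1% in rpb1S751F and 32% in rpb2-10, with 39.1% lower in rpb2-10, so that the shares of the list called higher in rpb1-1 and in either direction in rpb2-10 were near those of all genes. ADE1, which acts in the step after ADE2, rose in each mutant, by 0.55 ± 0.06 in rpb1-1, 0.67 ± 0.06 in rpb1S751F and 0.43 ± 0.05 in rpb2-10, the last against −0.58 for ADE2. BAS1, a transcription factor of purine and histidine genes, fell by 0.83 ± 0.06 in rpb2-10. In the tryptophan and aromatic list 4 of 9 genes fell and 3 rose in rpb1-1, 3 rose and 3 fell in rpb1S751F, and 5 fell and 1 rose in rpb2-10. Of all genes 25.7% fell and 28.1% rose in rpb1-1, 31.1% rose and 23.5% fell in rpb1S751F, and 39.1% fell and 32% rose in rpb2-10. ARO4, at the entry of the aromatic pathway, fell by 0.95 ± 0.09 in rpb1-1 and TRP2 rose by 0.67 ± 0.09 in rpb1S751F.

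Of 12 amino acid permeases related to CAN1, 5 fell and 2 rose in rpb1-1, 4 fell and 2 rose in rpb1S751F (8 and 3 with array weights), and 6 fell and 3 rose in rpb2-10. The shares of all genes that fell were 25.7%, 23.5% and 39.1% in these mutants. ALP1, an arginine transporter close to CAN1 in sequence, rose in each mutant, where CAN1 was lower. It rose by 1.84 ± 0.11 in rpb2-10, by 0.90 ± 0.15 in rpb1S751F and by 0.44 ± 0.15 in rpb1-1. AGP1, a permease of broad range that also lies near LEU2, fell by 1.30 ± 0.05 in rpb2-10, by 1.22 ± 0.14 in rpb1-1 and by 0.51 ± 0.14 in rpb1S751F. The general permease GAP1 fell by 0.81 ± 0.06 in rpb2-10, by 0.86 ± 0.17 in rpb1-1 and by 0.59 ± 0.17 in rpb1S751F.

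**Figure D4:**
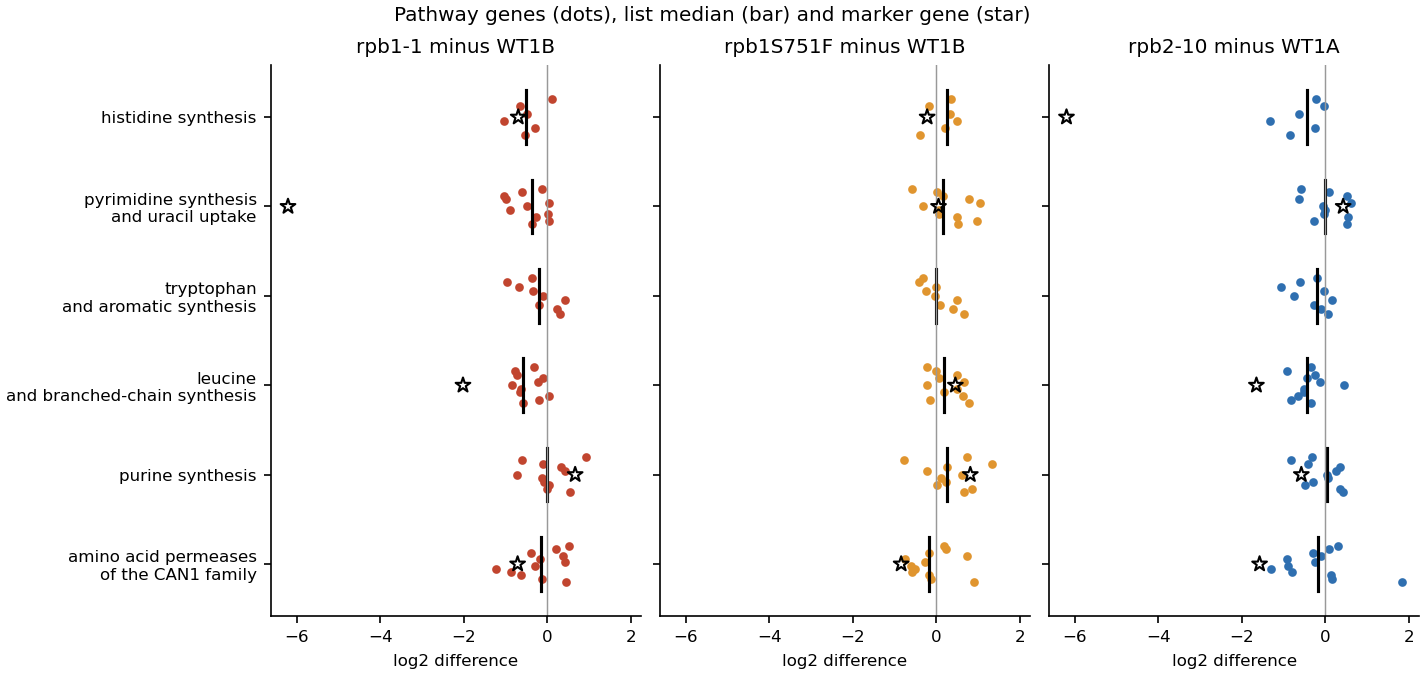
Log2 difference (horizontal axis) of the genes of 6 pathway lists in the 3 comparisons, with a dot per gene, a bar at the list median and a star for the marker gene of that pathway (none for tryptophan). The star lies at −6.21 for URA3 in rpb1-1 and at −6.20 for HIS3 in rpb2-10, apart from the dots of the same lists, and LEU2 lies to the left of its list in both.

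Positions among all tested genes put the 5 groups side by side without the offset between the sets, although set and mating type cannot be told apart. HIS3 stood at the 2.15th percentile in rpb2-10, the 23.6th in rpb1-1, the 31.4th in rpb1S751F, the 37.2th in WT1B and the 61.5th in WT1A (means of 3 arrays), and no pair of these groups overlapped. URA3 stood at the 4.69th percentile in rpb1-1, the 78.5th in WT1A, the 79.2th in WT1B, the 79.6th in rpb1S751F and the 83.1th in rpb2-10. WT1A, WT1B and rpb1S751F overlapped in this order, and rpb2-10 lay above them. URA3 therefore held like positions in the 2 wild types, where HIS3 did not.

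The other genes also differed in position between the wild types. DED1 stood at the 89.1th percentile in WT1A, against the 67.0th in WT1B, CAN1 at the 80.7th, against the 57.0th, and ADE2 at the 56.5th, against the 37.4th. TIM9 was the reverse, at the 77.1th in WT1A, against the 93.9th in WT1B. LEU2, MRM1 and GEA2 stood at the 84.4th, 71.8th and 63.1th in WT1A, against the 73.0th, 62.7th and 53.6th in WT1B. The ranges of the 2 wild types were apart for each of the genes of this paragraph. The share of all tested genes apart in this way was not computed, so this cannot be read as particular to these genes.

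The genes with the pattern most like HIS3 over the 15 arrays, each array taken relative to the wild type of its set, were DIA1 (Pearson r = 0.987), CWP1 (r = 0.986) and YOR385W (r = 0.985). Their differences in rpb2-10 were −2.11, −5.41 and −1.68. The genes most like URA3 were LAC1 (r = 0.995), MIP6 (r = 0.991) and FDC1 (r = 0.991), at −2.14, −3.68 and −1.85 in rpb1-1. MIP6 had a mean of 3.84 in rpb1-1, below the 95th percentile of the other species there, so its difference is limited by the background. The correlations describe the pattern, which is set largely by the mutant with the large difference, and the arrays of a set share a normalization.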

How the data were processed

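The deposited table holds log2 expression values of 10928 probe sets on 15 one-colour Affymetrix arrays. RMA and limma are named without versions or roles, per the submitters' processing notes, and the annotation behind the values is not given there. RMA equalises array distributions, so differences are relative to other genes. The arrays appear to have been normalized as 2 sets, which coincide with mating type.

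Probe sets were named from the platform annotation, with 12 symbols updated through the reference gene table of assembly R64, which also gave gene order. Of 47 genes with more than 1 probe set the brightest was used. Limma 3.58.1 in R 4.3.3 (lmFit, eBayes) was fitted with a mean per group to the 9 alpha arrays and to the 6 a arrays separately (6 and 4 residual degrees of freedom), and a call was a two-sided p, adjusted by Benjamini-Hochberg across 5449 genes, under 0.05. The fits were tested on simulated data. Replicates correlated at 0.987 to 0.998 across genes, with at most 53 identical values in a pair, so no array was merged with another. Precision is limited by 3 arrays per group.

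Named are the 10 genes, the 5 measured genes on each side of each marker, up to 3 called genes with the smallest p per pathway list and comparison, the 3 genes most like HIS3 and URA3, and RPO21 and RPB2. BAT2 was named after its value was seen. ADE5,7 of the purine list was not analysed here. The members and lists were chosen with earlier results of these data known. Alternatives were array centring, 1 fit of all arrays, a filter on dim genes, a replicate block, averaged probe sets, array weights and leaving out each replicate.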

Additional observations from a re-analysis of the deposited data

How the results depend on the processing

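The counts of called genes stayed within 1.5 times of 2932 in rpb1-1, 2974 in rpb1S751F and 3877 in rpb2-10 under every alternative run. They ranged from 2534 to 3054, from 2495 to 3082 and from 3610 to 3783 as each replicate was left out. With 1 fit of all 15 arrays they were 3348, 3503 and 3105, and with array weights 3537, 4207 and 4050. After median centring the larger side turned in rpb1-1, with 1422 higher and 1514 lower in place of 1531 and 1401, and in rpb2-10, with 2033 and 1854 in place of 1745 and 2132. The difference of URA3 in rpb1S751F, 0.055 with no call, changed sign to −0.029 with array weights, −0.015 without WT1B replicate 3 and −0.047 without rpb1S751F replicate 1, and leaving out each replicate gave −0.047 to 0.13. The cause was not tested. In rpb1S751F, MRM1, DED1, TIM9, ADE2 and CAN1 kept their direction and call under all 15 alternatives. In the other comparisons no gene of the 9 changed sign. With a window of 2 genes in place of 5, 12 of 20 flanking genes were called in rpb1-1, 9 in rpb1S751F and 16 in rpb2-10. These were 60%, 45% and 80%, beside 53.8%, 54.6% and 71.2% of all tested genes.

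With the replicate number as a block, 3025 genes were called in rpb1-1, 3072 in rpb1S751F and 3714 in rpb2-10, and GEA2 in rpb1S751F had adjusted p = 0.0618. Deviations of same-numbered arrays correlated from −0.31 to 0.50, and 8 of 24 matches between arrays of 2 groups were best with their own number. With 3 arrays per group these deviations are not independent, so they cannot show whether same-numbered samples were handled together. The level of HIS3 in rpb2-10 is limited by the background.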

Other observations

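Among the 213 control and reporter probe sets, 1 with a reporter identifier and no gene name here followed HIS3 (chosen after its values were seen). It was at 2.18, 1.77 and 2.02 in rpb2-10, against 7.45, 7.51 and 6.999 in WT1A, a difference of −5.33. In rpb2-10 it was at the background, with 2 of 3 arrays above the 95th percentile of the probe sets of the other species and 36 to 115 of those 1746 probe sets brighter, so that the size of the difference is limited by the background. In the alpha set it stayed high, at 9.27, 9.16 and 9.25 in rpb1-1 and 8.89, 9.27 and 8.97 in rpb1S751F, against 9.69, 9.77 and 9.31 in WT1B. Over the 15 arrays, relative to the wild type of the set, its Pearson r with HIS3 was 0.989. Since it was picked for its fall in rpb2-10, which dominates the HIS3 pattern, this r is a description only. Only 1 other control or reporter probe set was lower by at least 1 in rpb2-10, with a mean of 9.17, against 10.46 in WT1A.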
